A study of Mus musculus with 46 samples.

Results

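The mouse miRNAs numbered miR-680 to miR-721 form an early block of the miRNA registry. They were chosen by number alone, as all rows of the array table from miR-680 to miR-721, with any letter or arm. This gave 43 of the 1881 mouse miRNAs on the array. Of these 43 members, 21 were detected on at least 5 of 45 arrays and were analysed, as were 815 of all miRNAs, and 22 were left out of the tests.

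Total RNA of heart, liver and brain of male C57BL6 mice of an Il1a knock-out strain was profiled on 1-colour arrays after 0, 1, 3, 6, 12, 24, 48 or 96 h of storage of the excised tissue, either at 4 °C or at room temperature (RT). All arrays came from the knock-out strain, the age of the mice is not given in the sources used here, and each organ was cut into parts that were stored for different times. Arrays of 7 heart, 6 liver and 8 brain parts at 4 °C and of 8 parts of each tissue at RT were analysed. Each combination of tissue and temperature came from 1 animal and lay on 1 slide, so that animal, slide and temperature cannot be told apart within a tissue, and p-values measure the spread between parts of the same organ. Per the methods the 3 tissues were taken from the same individual, so that arrays of different tissues at 1 temperature are not independent. RNA integrity was given as the RIN value, which falls from 10 for intact RNA towards 1 for degraded RNA.

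A miRNA is cut from a hairpin precursor, which can yield a mature strand from its 5′ arm (-5p) and another from its 3′ arm (-3p), and usually one of them prevails. The mature strand guides a silencing complex to messenger RNAs, mainly by pairing of its seed, the bases 2 to 8. Most members of this block are known from rodents and have no human counterpart of the same number. miR-708, miR-711 and miR-718 are exceptions that also have a human gene of that number, miR-702 is a mirtron, whose hairpin is a spliced intron, and miR-712 lies in the precursor of ribosomal RNA.

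Mature sequences of 36 of the 43 members, and of 16 of the 21 analysed members, were found in the RefSeq miRNA table of build GRCm38.p6. Those of miR-684, miR-694, miR-696, miR-709, miR-712-3p, miR-712-5p and miR-714 were not matched. The sequences below belong to members on which the results turn, with the seed in capitals. The first group holds members whose level correlated negatively with RIN.
miR-705: gGUGGGAGguggggugggca
miR-680: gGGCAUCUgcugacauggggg
miR-718: cUUCCGCCcggccgggugucg
miR-706: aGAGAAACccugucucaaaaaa
miR-721: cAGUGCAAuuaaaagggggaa
The next group holds miR-690, whose course turned over, and the hairpins of which both arms were on the array.
miR-690: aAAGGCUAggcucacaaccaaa
miR-708-5p: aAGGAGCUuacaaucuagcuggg
miR-708-3p: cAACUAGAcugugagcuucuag
miR-702-5p: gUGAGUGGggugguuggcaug
miR-702-3p: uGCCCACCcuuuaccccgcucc
miR-700-5p: uAAGGCUCcuuccugugcuugc
miR-700-3p: cACGCGGGaaccgaguccacc

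Runs of 4 or more G were present in 6 of the 36 sequences, those of miR-680, miR-702-5p, miR-705, miR-710, miR-711 and miR-721, against 11.2% of the 1679 mature sequences in the RefSeq table. G made up 70.0% of miR-705, the member with the most negative correlation to RIN. A relation between G content and that correlation was not tested. The median GC content of the members was 51.2%, against 52.2% of all mature sequences. No 2 members shared a seed. The seed of miR-721 was that of the well-known miR-130 and miR-301 family, and the first 9 bases and 15 of 21 positions of miR-721 were identical to those of miR-130a-3p.
miR-130a-3p: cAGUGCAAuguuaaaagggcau

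The members were scattered over the genome at 41 loci, and 32 members lay within the bounds of another gene, without regard to strand. miR-690 (chr16:28599940-28599961, minus strand) lay in Fgf12, miR-705 (chr6:85336341-85336360, minus strand) in Rab11fip5, miR-706 (chr6:120034290-120034311, minus strand) in Wnk1 and miR-721 (chr5:136375777-136375797, minus strand) in Cux1. Both arms of miR-708 (chr7:96249450-96249472 and chr7:96249496-96249517, plus strand) lay in Tenm4, and both arms of miR-702 in Plod3. miR-718 (chrX:74023857-74023877, minus strand) lay in Irak1. The sequence of miR-680 was listed at 3 loci, on chromosomes 6, 12 and X, none of them within another gene, so that its signal belongs to no single locus.

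The arrays carried their tissue's known markers. The liver miRNA miR-122-5p was at 11.14 to 15.43 (log2) in liver and at most 7.34 elsewhere, heart had miR-208a-3p at 6.77 to 8.17, and brain had miR-124-3p at 12.93 to 13.83. None of these 3 passed the test of correlation with RIN. RIN values were 8.1 to 8.8 in heart at 4 °C, 7.3 to 8.7 in brain at 4 °C and 3.4 to 9.1 in liver at 4 °C. At RT they reached 2.2 in heart, 2.3 in liver and 3.3 in brain. The number of detected miRNAs per array ranged from 268 to 798.

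More members were detected where RNA integrity was low. In tissue of mixed cells, fewer cells of a type and less RNA per cell cannot be told apart, here or in the results that follow. On the 12 arrays with a RIN of 6 or lower, between 9 and 21 members were detected, with a median of 18.5 or 43.0% of the 43. On the 33 arrays with a RIN over 6, the number was 5 to 17 with a median of 11, or 25.6%. All miRNAs moved the same way, from a median of 23.7% detected on the arrays with a RIN over 6 to 32.6% on the others. The 2 ranges of the members overlapped, and tissue mattered too: on arrays with a RIN over 6, liver had 5 to 10 members, heart 8 to 13 and brain 11 to 17.

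Of the 43 members, 17 were detected on no array. These were miR-683, miR-684, miR-686, miR-687, miR-692, both arms of miR-693, miR-694, miR-695, miR-698-3p, both arms of miR-701, miR-702-5p, miR-707, miR-713, miR-717 and miR-719. A further 5 were detected on too few arrays for analysis. miR-682 was detected only in heart after 48 h at RT, miR-688 only in liver after 24 h at RT and miR-704 only in liver after 96 h at RT. miR-698-5p was detected on 3 arrays, heart after 96 h and brain after 48 and 96 h at RT, and miR-700-5p on 3 arrays, liver after 24, 48 and 96 h at RT. All arrays on which these 5 were detected had a RIN of 6 or lower.

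At the other end, miR-690, miR-705, miR-709 and miR-712-5p were detected on all 45 arrays. Of the 26 members detected on any array, 8 or 30.8% were detected only at a RIN of 6 or lower, and 0 only at a RIN over 6. The 8 were the 5 rare ones above with miR-703, miR-710 and miR-712-3p. Over all 1072 miRNAs detected on any array, 26.9% were seen only on the arrays with low RIN and 4.29% only on those with a RIN over 6. The members' share in low RIN arrays only was thus close to that of all detected miRNAs.

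**Figure D1:**
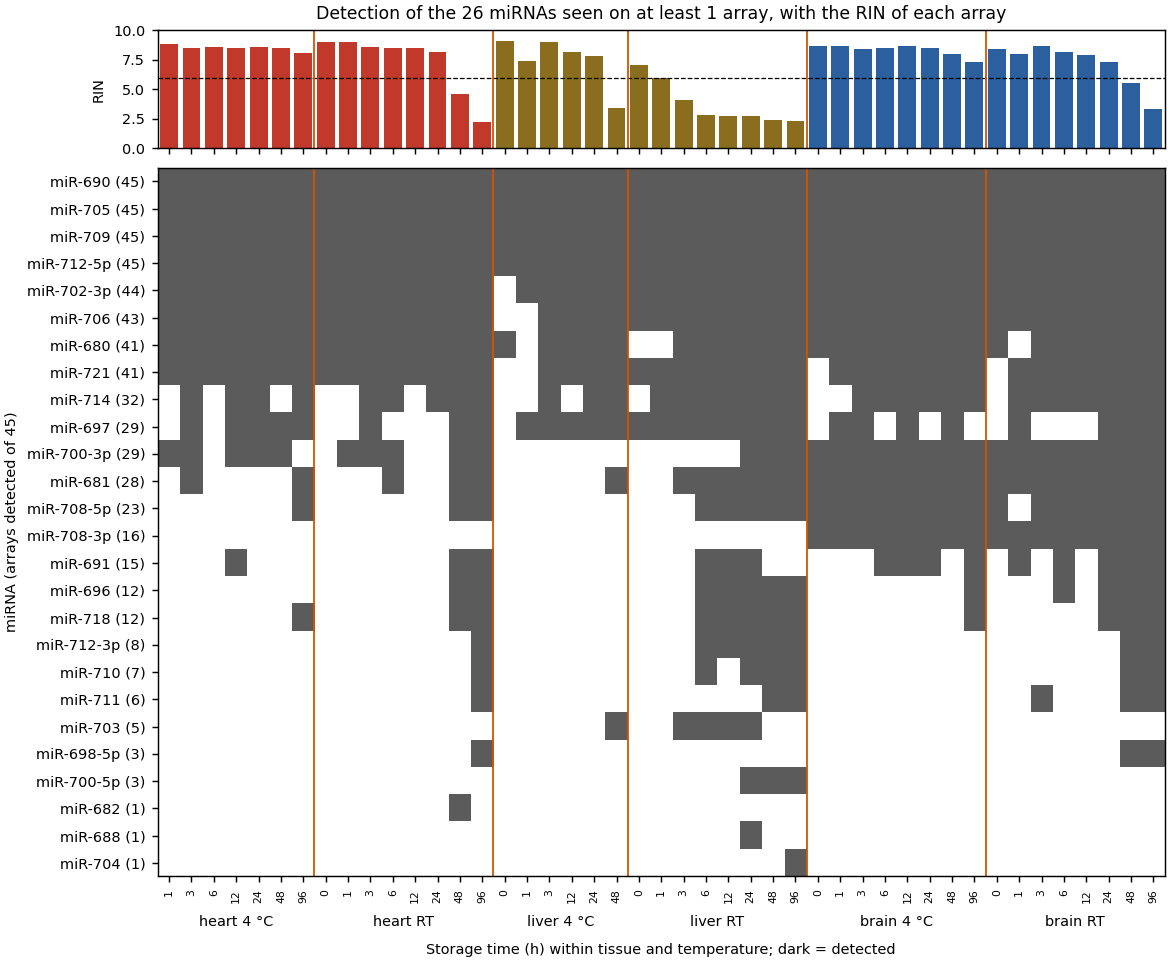
Detection of the 26 members seen on at least 1 array, with members in rows and the 45 arrays in columns, ordered by storage time in hours within tissue and temperature. Dark cells are detected, the bars on top give the RIN of each array with a dashed line at 6, and the rows below miR-718 are dark almost only under bars of RIN 6 or lower, with miR-711 in brain after 3 h at RT as the exception.

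The members together gave little of the signal. Their share of the summed signal of all detected miRNAs was 0.0900% to 0.887% on arrays with a RIN over 6 and 0.140% to 3.16% on the others. Up to 2.56% of the summed signal came from miR-709 alone, in brain after 96 h at RT.

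The block was set beside other ranges of registry numbers. Of the 701 miRNAs from miR-1 to miR-679, 57.8% were analysed and 32.8% were never detected. Of the 43 members these shares were 48.8% and 39.5%, of the 55 from miR-722 to miR-999 they were 30.9% and 60.0%, and of the 936 from miR-3000 upwards they were 32.9% and 49.8%. The members thus lay between the low and the high numbers in both shares.

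The level of 11 of the 21 analysed members correlated negatively with RIN, and none positively (Pearson's correlation over 45 arrays, Bonferroni adjustment over 815 miRNAs). Over all 815 analysed miRNAs, 36.3% passed this test, 25.9% with a negative and 10.4% with a positive correlation. The 11 were miR-680, miR-696, miR-703, miR-705, miR-706, miR-708-5p, miR-709, miR-712-3p, miR-714, miR-718 and miR-721. miR-703 and miR-712-3p among them, and miR-710 among the others, entered the analysis through arrays of low RIN only. miR-696 and miR-718, each detected on 9 arrays of low RIN and 3 others, and miR-711, on 5 and 1, also reached the minimum of 5 only with arrays of low RIN. miR-703 no longer passed with tissue or slide as a block, nor miR-696 and miR-703 with undetected values at the floor. With detection on at least 10 arrays required, 9 of 17 members and 150 of 650 miRNAs correlated negatively. miR-696 and miR-718 reached that minimum, too, only with arrays of low RIN.

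The median correlation of the 21 members was -0.58, against -0.03 over all 815. It was 0.32 from miR-1 to miR-679, -0.11 from miR-722 to miR-999, -0.51 from miR-1000 to miR-2999 and -0.52 from miR-3000 upwards. In this respect the members resembled the high numbers more than the low ones, which is a description of these groups and was not tested. The median of the members includes those named above that reached the minimum only with arrays of low RIN. For such miRNAs the filter itself favours a negative correlation. The same filter was used for the other ranges, where such miRNAs were not counted, so that these medians are no independent support.

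**Figure D2:**
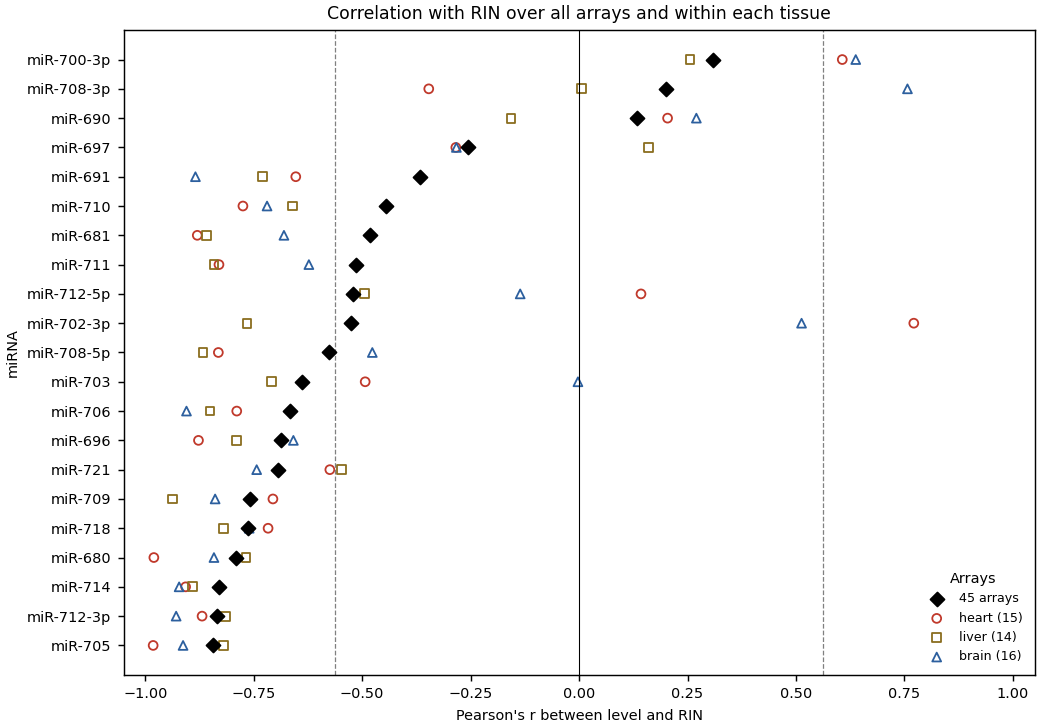
Pearson's correlation of the log2 level of each of the 21 analysed members with RIN, over all 45 arrays and within heart, liver and brain. The dashed lines mark the smallest correlation that passed the Bonferroni adjusted test, 0.56 in size. 11 members lie beyond the line on the negative side and 0 on the positive side.

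The most negative correlation was that of miR-705, with r = -0.84 (Bonferroni adjusted p = 2.73e-10) and Spearman's rho = -0.64. The permutation p over 100000 permutations was 1e-05 for r, the smallest they can give, and 2e-05 for rho. Within tissues r was -0.98 in heart, -0.82 in liver and -0.91 in brain, and it was -0.81 when the 2 arrays with the most extreme RIN were left out. In heart at RT the log2 level of miR-705 was 3.89, 3.89, 4.17, 4.46, 4.12 and 4.35 from 0 to 24 h, and then 6.37 after 48 h and higher still after 96 h. In liver at RT it was 2.71, 3.57 and 4.31 up to 3 h, 6.75 after 6 h and 8.71 after 96 h. In heart the step came with the fall of RIN from 8.2 after 24 h to 4.6 after 48 h. In liver RIN had already gone from 7.1 at 0 h to 4.1 after 3 h, before the step. It was 2.8 after 6 h and 2.3 after 96 h. At 4 °C all 7 heart arrays stayed between 4.14 and 4.48.

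miR-680 behaved alike, with r = -0.79 (Bonferroni adjusted p = 8.07e-08, permutation p = 1e-05) and -0.75 without the 2 farthest arrays. Its rho was only -0.44 (permutation p = 0.00251). In liver at RT it stood at 2.27, 2.86 and 3.38 up to 3 h, at 6.24 after 6 h, 7.38 after 12 h, 6.80 after 24 h, 8.71 after 48 h and 9.92 after 96 h. In heart it was 3.58 after 24 h, 5.64 after 48 h and 6.70 after 96 h at RT, while all heart arrays at 4 °C were between 3.85 and 4.05. Brain at RT reached 5.95 after 96 h, against 2.33 to 4.41 before. Each tissue thus had its highest value at RT and 96 h.

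miR-714 had r = -0.83 (Bonferroni adjusted p = 1.38e-09), rho = -0.74 and permutation p = 1e-05 for both, and r = -0.91, -0.89 and -0.92 within heart, liver and brain. It was detected on all 12 arrays with a RIN of 6 or lower and on 20 of the 33 others. In brain at RT its level was 1.46 and not detected at 0 h, and 7.26 after 96 h. miR-712-3p had r = -0.83 (Bonferroni adjusted p = 9.43e-10, permutation p = 1e-05) and rho = -0.55 (permutation p = 1e-04). It entered the analysis through 8 arrays that all had a RIN of 6 or lower, so that these p-values are no independent support. miR-718, which has a human namesake, had r = -0.76 (Bonferroni adjusted p = 9.32e-07, permutation p = 1e-05) and rho = -0.66 (permutation p = 3e-05). It was detected on 9 of the 12 arrays of low RIN and on 3 of the 33 others, so that most of its values at higher RIN are signals near background.

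miR-709 had r = -0.76 (Bonferroni adjusted p = 1.22e-06) and rho = -0.81, each with permutation p = 1e-05. Its levels were 6.78 to 12.17 over the 45 arrays, and it rose also where RIN stayed high. In heart at 4 °C it went from 8.10 after 1 h to 9.79 after 96 h while RIN moved from 8.8 to 8.1. On the 33 arrays with a RIN over 6 its r was -0.61, the most negative of the 21 members, while that of miR-705 was -0.17 and that of miR-680 was 0.22. None of the 21 members and 0 of 815 miRNAs passed the test on those 33 arrays.

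Of the 21 analysed members, 17 had a negative correlation with RIN within heart, 18 within liver and 17 within brain. For the 11 that passed over all arrays, within-tissue values ran from -0.98 to -0.49 in heart, from -0.94 to -0.55 in liver and from -0.93 to -0.003 in brain. miR-703 was detected on no heart and no brain array, so that its values there are signals near background. Blood and endothelial markers were checked as well, since parts of an organ can differ in the blood they hold: miR-451a, miR-144-3p, miR-486a-5p, miR-223-3p and miR-126a-3p had r with RIN between 0.24 and 0.49, and 0 of these 5 passed. Their part in the members' values was not tested.

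**Figure D3:**
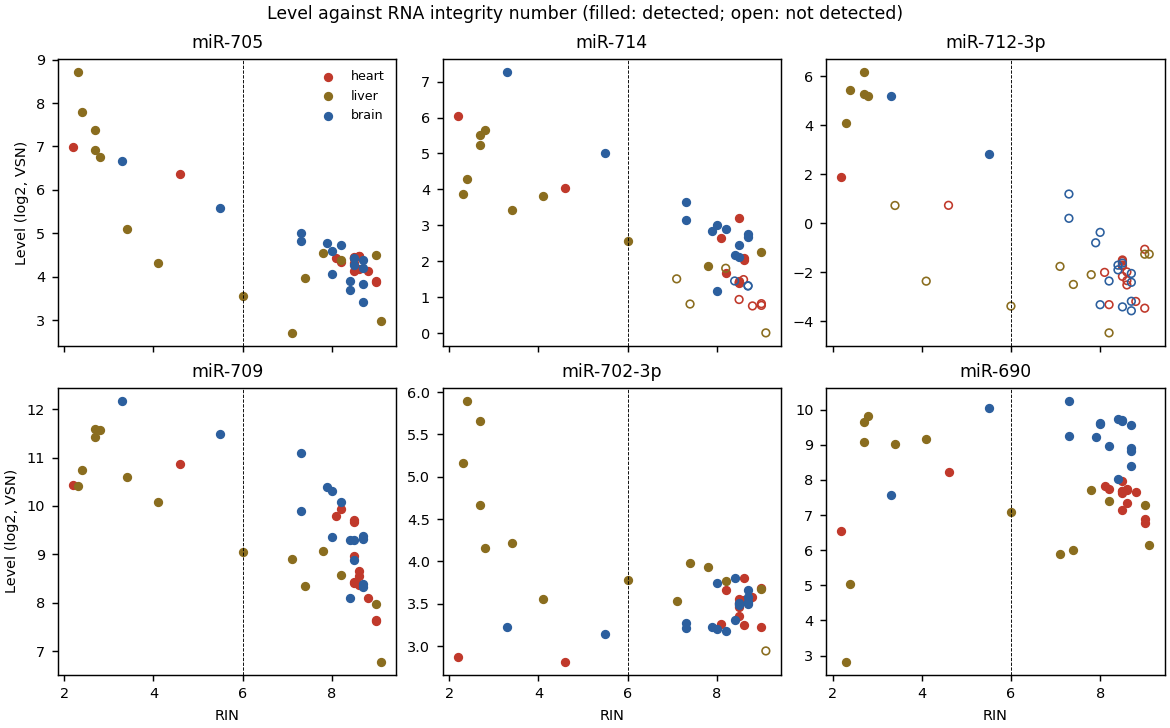
Log2 level (VSN) of 6 members against the RIN value of the array, 1 point for each of 45 arrays, coloured by tissue, with filled points where the miRNA was detected, open points where it was not and a dashed line at a RIN of 6. miR-705 rises at low RIN in all 3 tissues, to 8.71 in liver, miR-702-3p rises in liver only, and miR-690 has its lowest point, 2.83, at low RIN.

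At the positive end no member passed the test. miR-700-3p had r = 0.31 (Bonferroni adjusted p = 1, permutation p = 0.0402), rho = 0.09 (permutation p = 0.575), and r = 0.61 in heart, 0.26 in liver and 0.64 in brain. miR-708-3p had r = 0.20 (permutation p = 0.188), rho = 0.02 (permutation p = 0.872) and was detected in brain only. miR-690 had r = 0.13 (permutation p = 0.38), rho = -0.13 (permutation p = 0.412), miR-697 had r = -0.26 (permutation p = 0.0908), rho = -0.16 (permutation p = 0.298) and miR-691 had r = -0.37 (permutation p = 0.0129), rho = -0.40 (permutation p = 0.00636). For miR-690 a straight line was a poor summary, because its level went up and then down with storage.

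miR-690 was detected on all arrays, and in liver at RT its log2 level was 5.90 at 0 h, 7.08 after 1 h, 9.17 after 3 h, 9.84 after 6 h, 9.64 after 12 h, 9.07 after 24 h, 5.03 after 48 h and 2.83 after 96 h. The rise to 6 h and the fall after 24 h were both larger than the whole range of the 6 liver arrays at 4 °C, 6.01 to 9.03. In brain at RT it was 8.02 at 0 h, 10.04 after 48 h and 7.56 after 96 h. In heart at RT it was 6.90 at 0 h, 8.22 after 48 h and 6.54 after 96 h. In each tissue the lowest value at RT was thus that of 96 h, after a peak at 6 h in liver and at 48 h in heart and brain. Each time point is 1 array, and the shape was not tested.

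miR-721 rose early. Its r with RIN was -0.69 (Bonferroni adjusted p = 9.72e-05, permutation p = 1e-05), its rho -0.66 (permutation p = 1e-05), and within tissues r was -0.57, -0.55 and -0.74 in heart, liver and brain. In liver at 4 °C its log2 level was 2.25 at 0 h and 2.73 after 1 h, both not detected, then 7.38 after 3 h, 9.13 after 12 h, 10.27 after 24 h and 10.06 after 48 h. The RIN of these parts stayed between 7.4 and 9.1 up to 24 h, so that the level rose there while RIN was still over 6. In liver at RT it went from 5.54 at 0 h to 10.41 after 24 h and was 7.04 after 96 h. In heart it was 2.14 at 0 h and 7.19 after 96 h at RT, and in brain 2.69 and 8.47.

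The family members that share the seed of miR-721 did not follow it in this respect. On the same 45 arrays r with RIN was 0.16 for miR-130a-3p, which was detected on all 45, 0.51 for miR-301a-3p, detected on 41, and 0.47 for miR-130b-3p, detected on 22. The difference between these correlations and that of miR-721 was not tested.

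The arms of 4 hairpins were compared. miR-712-5p was detected on all 45 arrays and miR-712-3p on 8, all of them with a RIN of 6 or lower. In liver at RT miR-712-3p was at -1.77, -3.39 and -2.37 and not detected up to 3 h, and then detected at 5.20, 6.17, 5.29, 5.43 and 4.09 from 6 to 96 h. Over the same 8 arrays miR-712-5p ranged from 4.56 to 6.49. The 5p arm had r = -0.52 with RIN (Bonferroni adjusted p = 0.204), which within tissues was 0.14 in heart, -0.49 in liver and -0.14 in brain. In liver at 4 °C the 5p arm was at 3.59 at 0 h and at 6.62 after 48 h, where RIN was 3.4. Only the 3p arm was thus confined to arrays of low RIN in its detection.

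miR-702-3p was detected on 44 arrays and miR-702-5p on 0. The correlation of miR-702-3p with RIN was -0.53 over all arrays (Bonferroni adjusted p = 0.168), and it differed in sign between tissues, with -0.77 in liver against 0.77 in heart and 0.51 in brain. Its level in liver at RT was 3.53 at 0 h and 5.89 after 48 h, while in heart at RT it was 3.22 at 0 h and 2.82 after 48 h. The pooled value therefore rests on liver. The difference between tissues was not tested.

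miR-700-3p was detected on 29 arrays, all 16 of brain, 10 of heart and 3 of liver, whereas miR-700-5p was detected in liver alone. miR-708-3p was detected on all 16 brain arrays and on 0 of 15 heart and 0 of 14 liver arrays. miR-708-5p was detected on 15 brain arrays, and on 5 liver and 3 heart arrays, among them 7 with a RIN of 6 or lower. In liver at RT miR-708-5p was -1.93 and not detected at 0 h, and 5.14 after 48 h, while miR-708-3p was -1.22 and -1.71 and not detected on either array. The r of miR-708-5p with RIN was -0.58 (Bonferroni adjusted p = 0.0281, permutation p = 2e-05), with -0.83 in heart, -0.87 in liver and -0.48 in brain. The arms of this hairpin thus parted outside brain.

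Liver offered a comparison within 1 tissue, of 8 arrays with a RIN of 6 or lower against 6 arrays with a RIN over 6. In it 7 of the 21 members were higher at low RIN and none lower (exact 2-sided WMW test, Benjamini-Hochberg adjustment over 815 miRNAs), against 27.7% of all analysed miRNAs called and 24.8% called higher. The 7 were miR-681, miR-696, miR-706, miR-708-5p, miR-709, miR-714 and miR-718. The low RIN arrays were 7 of RT and 1 of 4 °C, and the others 5 of 4 °C and the 0 h array of RT, so that slide and RIN class can hardly be told apart. With slide as a block in limma, 0 members and 0 of 815 miRNAs passed.

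The median difference of the 21 members was 2.56, against 0.33 over all 815. It includes the members that reached the detection minimum only with arrays of low RIN. The median of the members moved with the processing, to 1.45 under quantile normalization and 1.64 and 1.66 under the 75th percentile scalings. It was 2.10 without scaling and 0.24 with normexp. miR-714 was the only member whose 2 groups did not overlap, as for 3.19% of all analysed miRNAs. Its log2 level was 2.56 to 5.67 (median 4.08) at low RIN and 0.01 to 2.27 (median 1.66) at high RIN, with means of 4.29 ± 1.10 (SD, n = 8) and 1.38 ± 0.83 (SD, n = 6), a difference of 2.91 (exact p = 0.000666, the smallest this design allows, adjusted p = 0.0209). miR-709 was at 9.04 to 11.59 (median 10.67) against 6.78 to 9.07 (median 8.46), a difference of 2.41 (exact test, adjusted p = 0.0252). The highest of its 6 arrays with a RIN over 6 lay just above the lowest of the others.

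miR-681, miR-708-5p and miR-718 were detected on 0 of the 6 arrays with a RIN over 6, so that their differences are bounds against the lowest level of a detected miRNA. miR-681 was at least 2.41-fold higher at low RIN (exact test, adjusted p = 0.0271), miR-708-5p at least 2.42-fold (exact test, adjusted p = 0.0271) and miR-718 at least 3.05-fold (exact test, adjusted p = 0.0322). miR-706 differed by 1.74 on the log2 scale (exact test, adjusted p = 0.0322). That call was lost under both 75th percentile scalings and with normexp. miR-696, with a difference of 2.56 (exact test, adjusted p = 0.0456), was also detected on none of those 6 arrays, and its mean at low RIN did not exceed the floor. With undetected values at the floor miR-681, miR-696, miR-708-5p and miR-718 no longer passed, and miR-696 and miR-718 did not pass under any other scaling or with normexp.

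miR-712-3p, detected on 0 of the 6 arrays with a RIN over 6, did not pass (exact test, adjusted p = 0.135). Nor did miR-680 with a difference of 2.95 and miR-705 with 2.47 (exact test, adjusted p = 0.0804 for both). On the RT arrays of 1 and 3 h, with RIN values of 6.0 and 4.1, all 3 lay within the range of the arrays with a RIN over 6. Without the 1 h RT array, whose RIN was 6.0, 14 members passed, as did 332 of all 815 miRNAs. miR-690 differed by 0.96 (exact test, adjusted p = 0.450), with 2.83 to 9.84 at low RIN around 5.90 to 7.72 at high RIN.

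Storage time at RT correlated with the level of 2 of the 21 members, miR-705 with r = 0.74 (Bonferroni adjusted p = 0.0283, permutation p = 9e-05) and miR-706 with r = 0.74 (Bonferroni adjusted p = 0.0336, permutation p = 2e-05). Of all analysed miRNAs 12.3% passed, 10.3% with a positive correlation. Spearman's rho was 0.86 for miR-705 and 0.77 for miR-706 (permutation p = 1e-05 each). Neither passed under quantile normalization or 75th percentile scaling. Without the liver array of 96 h 0 members passed, and 55 of all 815 miRNAs. miR-706 was at 2.01 at 0 h and 4.67 after 96 h in heart, 1.54 and 4.41 in liver and 2.51 and 5.24 in brain. At 4 °C 0 of 21 members passed, against 0.982% of all miRNAs, with r = 0.74 for miR-718, 0.69 for miR-709 and 0.67 for miR-714. With Benjamini-Hochberg adjustment these 3 members passed, against 5.28% of all miRNAs. At 4 °C miR-718 was detected on 1 heart, 0 liver and 1 brain array, and miR-714 on 4, 3 and 6. The other values of miR-718 and miR-714 at 4 °C are signals near background.

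The median correlation of the members with storage time was 0.59 at RT, against 0.08 over all 815, and 0.34 at 4 °C, against 0.06. These medians include miR-710, miR-711 and miR-712-3p, which were detected at RT only. To compare the temperatures, a line through storage time was fitted for each temperature with an intercept for each of the 6 slides (limma, Benjamini-Hochberg adjustment). At RT 13 members rose and 2 fell, against 42.8% and 38.7% of all miRNAs, and at 4 °C 0 members changed, against 1.10%. The slopes differed for 7 members, against 52.6% of all miRNAs. They were higher at RT for 5 members and lower for 2, against 24.7% and 28.0% of all miRNAs. A difference that was not called does not show equal slopes.

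Among the 7, miR-680 rose by 1.07 log2 units per day at RT and had a slope of 0.12 at 4 °C, a difference of 0.95 ± 0.21 (SE, limma adjusted p = 0.000990). miR-705 differed by 0.68 ± 0.18 (SE, adjusted p = 0.00335), miR-706 by 0.39 ± 0.13 (SE, adjusted p = 0.0138), miR-710 by 1.44 ± 0.31 (SE, adjusted p = 0.000649) and miR-711 by 0.75 ± 0.29 (SE, adjusted p = 0.0300). miR-710 and miR-711 were each detected on under 10 arrays, so that most of the fitted values were near background. All of those arrays were of RT, so that both entered the analysis through RT arrays only. The p-values of these members are thus no independent support for a difference between the temperatures. miR-690 went the other way, with -0.55 per day at RT and 0.27 at 4 °C, a difference of -0.82 ± 0.27 (SE, adjusted p = 0.0118). So did miR-700-3p, with -0.25 and 0.02, a difference of -0.27 ± 0.10 (SE, adjusted p = 0.0211), which had the opposite sign without scaling between arrays. By tissue, miR-690 changed by -1.39 per day at RT and 1.32 at 4 °C in liver. It changed by -0.05 and 0.007 in heart and -0.21 and 0.27 in brain, so that the difference was largest in liver. A straight line was a poor summary for miR-690, as said above. miR-690 no longer passed without scaling, miR-706 under quantile normalization or 75th percentile scaling over all miRNAs, and miR-711 with a slope for each slide. miR-700-3p was lost under 75th percentile scaling over detected miRNAs, with normexp and with the floor. For miR-709 the slopes were 0.50 at RT and 0.46 at 4 °C, and the difference of 0.04 had a 95% interval of -0.36 to 0.44. For miR-721 the interval was -1.02 to 0.69.

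**Figure D4:**
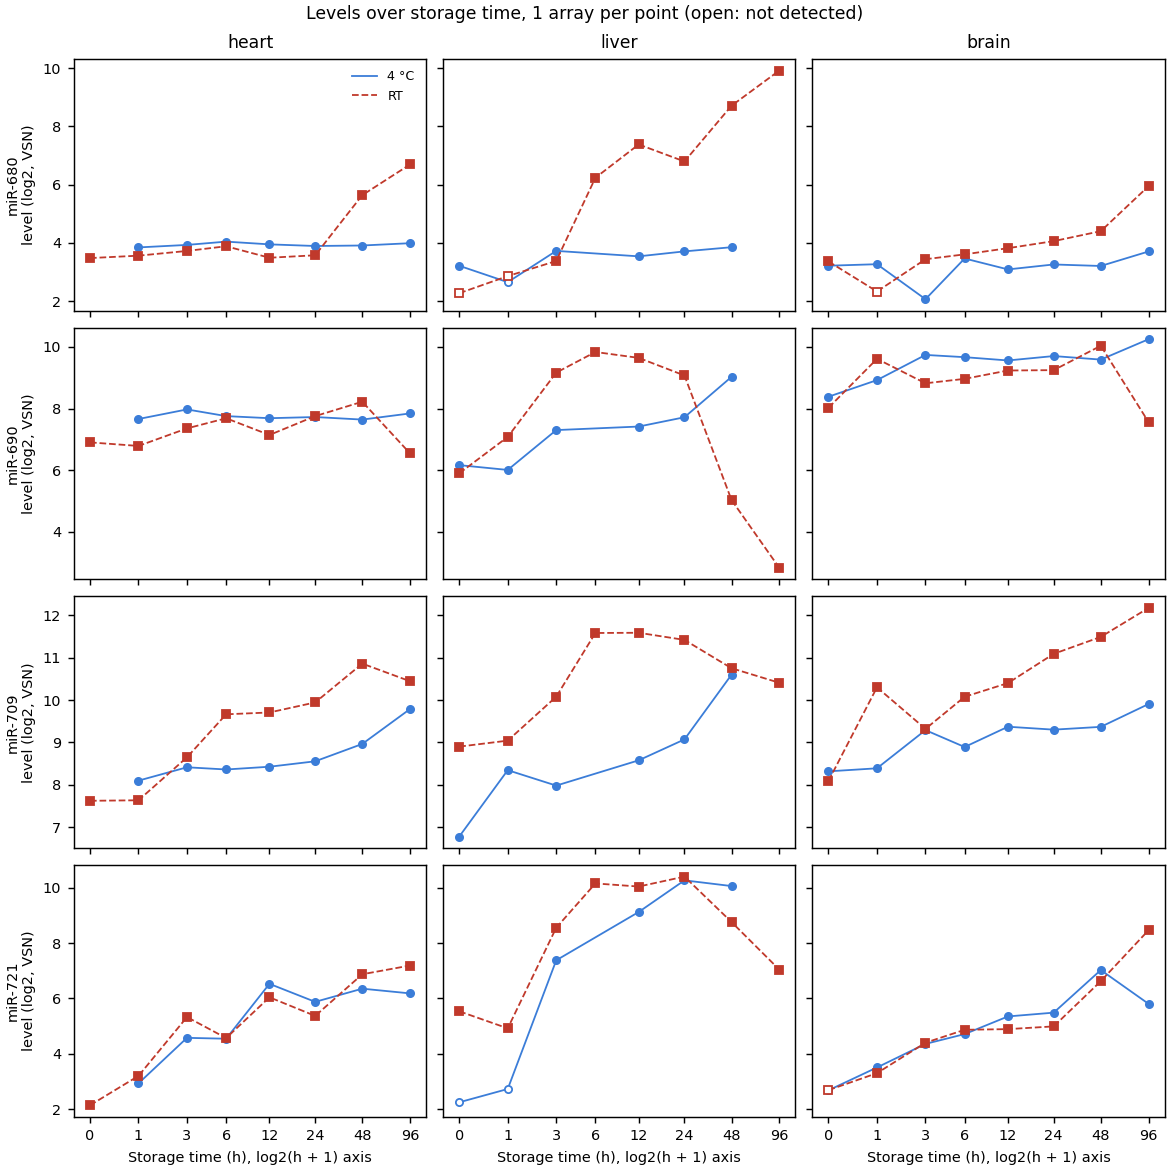
Log2 level (VSN) of miR-680, miR-690, miR-709 and miR-721 over storage time in hours, on a log2(hours + 1) axis, for each tissue at 4 °C (circles, solid line) and at RT (squares, dashed line), 1 array per point, with open points where not detected. miR-690 in liver at RT peaks at 9.84 after 6 h and ends at 2.83, and miR-680 there ends at 9.92.

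Tissues were compared on arrays with a RIN over 6, of 13 heart, 6 liver and 14 brain parts (limma, Benjamini-Hochberg adjustment over 815 miRNAs). Between brain and heart 12 members differed, 11 of them higher in brain, against 70.9% of all miRNAs that differed and 48.7% that were higher in brain. Between brain and liver 12 members differed, 11 of them higher in brain, against 73.4% and 58.7%. Between liver and heart 8 differed, 6 of them lower in liver, against 56.1% and 45.6% lower in liver. Over all 815 miRNAs the median difference was 0.44 for brain minus heart, 1.12 for brain minus liver and -0.60 for liver minus heart, and under quantile normalization these medians were -0.03, 0.07 and 0.00. The split by direction moved with the scaling as well. The members called higher and lower were 11 and 1 for brain minus heart. They were 4 and 4 under quantile normalization and 5 and 5 with normexp background correction. Over all 815 miRNAs these counts were 397 and 181, 264 and 308, and 282 and 312. For brain minus liver the members called were 11 and 1, but 5 and 6 under quantile normalization. They were 6 and 6 with normexp and 6 and 8 with undetected values at the floor. Over all miRNAs these counts were 478 and 120, 308 and 260, 294 and 278, and 339 and 258. For liver minus heart the members called were 2 and 6, but 5 and 1 under quantile normalization. They were 5 and 0 with normexp and 7 and 3 with the floor. Over all miRNAs these counts were 85 and 372, 168 and 211, 194 and 175, and 179 and 240. Temperature as a block takes up the shared individual and was chosen after the data were seen. With it 8 members and 465 of all 815 miRNAs differed between liver and heart. The counts were 13 and 584 between brain and heart, and 12 and 606 between brain and liver.

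miR-690 was highest in brain, with a log2 level of 9.27 ± 0.59 (SD, n = 14), against 7.53 ± 0.37 in heart (SD, n = 13) and 6.75 ± 0.81 in liver (SD, n = 6). Brain exceeded heart by 1.74 ± 0.21 (SE, limma adjusted p = 8.22e-09) and liver by 2.52 ± 0.27 (SE, limma adjusted p = 3.90e-10). The order of liver and heart turned under quantile normalization. miR-708-3p was at 1.60 ± 0.21 (SD, n = 14) in brain and not detected in heart or liver, so that it entered the analysis through brain arrays only. Brain was at least 1.14-fold higher than heart (limma adjusted p = 3.95e-16), and no bound above 1 was reached against liver. Here and for the bounds that follow, the p-value came from the undetected values themselves and not from the bound. miR-708-5p in brain was at least 1.56-fold higher than in liver (limma adjusted p = 5.77e-07).

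miR-681 was detected on 14 of 14 intact brain arrays, 3 of 13 heart and 0 of 6 liver arrays, and in brain was at least 2.69-fold higher than in liver (limma adjusted p = 1.30e-09). miR-700-3p was detected on 14 of 14, 8 of 13 and 0 of 6 arrays. It was higher in brain than in heart by 0.88 ± 0.15 (SE, limma adjusted p = 2.40e-06), and at least 1.41-fold higher than in liver (limma adjusted p = 0.0182), a direction that turned under quantile normalization. miR-697 had its highest mean in liver, 3.22 ± 0.81 (SD, n = 6), against 2.10 in heart and 2.39 in brain, where liver exceeded heart by 1.12 ± 0.28 (SE, limma adjusted p = 0.00107). That call was lost without scaling between arrays.

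miR-705 had means of 4.28 in heart, 3.85 in liver and 4.30 in brain, and miR-702-3p of 3.49, 3.64 and 3.44. Neither passed in any of the 3 contrasts. Under quantile normalization both did, miR-705 with -1.02 for brain minus heart and -1.47 for brain minus liver, and miR-702-3p with -1.07 and -2.04. Without scaling miR-702-3p passed with the opposite sign, 0.47 for brain minus liver, and with -0.35 for liver minus heart. The differences of miR-703 and miR-710 between tissues were called although neither was detected on any of these 33 arrays, and those of miR-711 although it was detected on 1. These are differences among values near background and turned when undetected values were set to the floor.

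**Figure D5:**
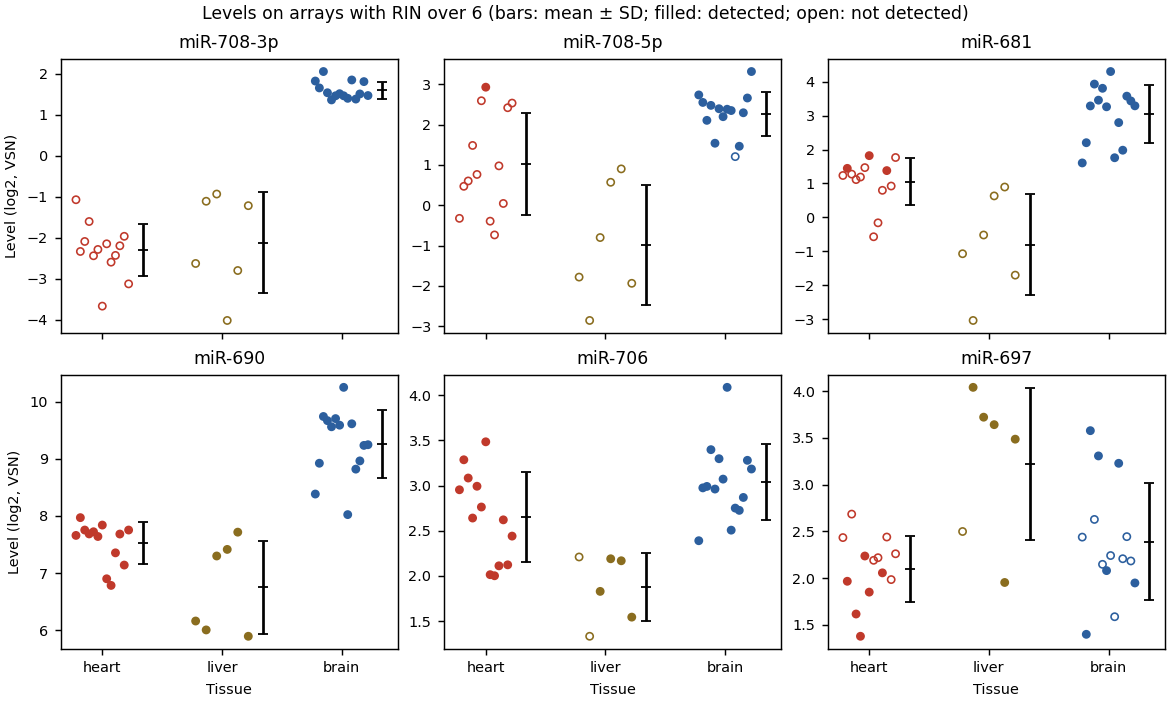
Log2 level (VSN) of 6 members on the 33 arrays with a RIN over 6, by tissue, 1 point per array, filled where detected and open where not, with bars for the mean and SD. miR-690 and miR-708-3p have their highest means in brain, 9.27 and 1.60, and miR-697 in liver, 3.22.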

How the data were processed

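Total RNA of 46 tissue parts was labelled with Cy3 and hybridised to 1-colour arrays for 1881 mouse miRNAs, with 30 spots for each. RNA was isolated without DNase digestion, per the methods. Per the file headers, the deposited intensity values are background-subtracted signals of Agilent Feature Extraction 10.10.1.1, which also gives a detection flag for each miRNA. The deposited series table holds log2 values that the authors made with variance stabilizing normalization, called VSN here, which brings arrays to a common scale and evens out the spread of dim and bright signals. It gives undetected miRNAs values near background, on which no fold can be read. One heart array (4 °C, 0 h) was left out, as in the study, and VSN was fitted anew to the remaining 45. Fitted to all 46, it gave the authors' values within 0.00166.

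A miRNA was analysed where it was detected on at least 5 arrays. Level was set against RIN and storage time by Pearson's correlation with Bonferroni adjustment over 815 miRNAs, with 100000 permutations for the members. Liver arrays were compared by an exact 2-sided Wilcoxon-Mann-Whitney (WMW) test, and tissues and storage slopes by limma 3.58.1 in R 4.3.3, with Benjamini-Hochberg adjustment, all called at adjusted p under 0.05. The lowest level of a detected miRNA on an array (0.19 to 1.74, median 1.32) served as the floor for fold bounds. Python 3.11.15 with scipy 1.17.1 was used, and the tests were tested on simulated data.

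The labels give 12 h where the methods give 14 h, and 12 h was used. Liver of 6 h and 96 h at 4 °C was not analysed here. The number of arrays limits the precision, and every time point is 1 array. The members were taken by number, and the members named in full were those detected on all 45 arrays, those with the 5 most negative and the 5 most positive correlations with RIN, and both arms of each hairpin with an analysed arm. Members and lists were chosen with earlier results of these data known. Alternatives covered scaling, background correction by normexp on the median spot signal (offset 50), the treatment of undetected values, the detection minimum, adjustment, tissue, slide and temperature as blocks, rank correlation and leaving out each array.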

Additional observations from a re-analysis of the deposited data

Results flagged for a closer look

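miR-680 had 1 array apart from the other 7 of brain at 4 °C, at 3 h, with a log2 level of 2.07, where the next lowest was 3.09 and the miRNA was detected. miR-691 had 1 such array in the same group, at 1 h, with 0.50 against a next lowest of 1.16, where it was not detected. These were the 2 values far from the rest of their group in 126 tests, fewer than the 1 in 20 that chance alone sets apart.

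The storage slope differed between RT and 4 °C for 7 members (limma, adjusted p under 0.05 each), with differences in log2 units per day of 0.945 for miR-680, 0.680 for miR-705, 0.393 for miR-706, 1.444 for miR-710, 0.746 for miR-711, -0.818 for miR-690 and -0.274 for miR-700-3p. miR-710 and miR-711 were detected at RT only and entered the analysis through those arrays, so that their calls are no independent support. Temperature, slide and animal cannot be told apart within a tissue.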

How the results depend on the processing

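Leaving out 1 array at a time gave 10 to 12 members correlated with RIN, 0 to 4 with storage time at RT (0 without the heart arrays of 0, 1 or 3 h, the liver arrays of 1 or 96 h or the brain arrays of 0 or 1 h, and 4 without liver of 6 or 12 h), 0 to 0 at 4 °C and 1 to 14 in liver at low against high RIN. The liver count was 1 without 4 °C of 1 h or RT of 0 h, 2 without 4 °C of 0 h and 14 without RT of 1 h. It was 4 without 4 °C of 48 h or RT of 6, 12, 24, 48 or 96 h. Of all 815 miRNAs, 28 and 29 passed in liver beside 1 member, 51 beside 2, 134 to 148 beside 4 and 332 beside 14. For storage at RT, 55 to 87 passed beside 0 members, and 124 and 120 beside 4. No paired analysis was run, and all samples carry the replicate number 1 in their labels. The individual shared by the tissues was taken up only by temperature as a block. Temperature as a block in the tissue comparison, added after the data were seen, changed no direction and ended no call of a member.

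Counts over all analysed miRNAs, of 815 unless stated, are given in brackets here and below. The count of 11 members correlated with RIN (296) became 18 (329) without scaling between arrays and 17 (603) with Benjamini-Hochberg adjustment. It became 7 (151) with Spearman's rho and 0 (0) on arrays with a RIN over 6, where miR-680 had r = 0.22. The 2 members at RT (100) became 9 (217) without scaling, 4 (76) with quantile normalization and 4 (79) with normexp. They became 13 (439) with Benjamini-Hochberg adjustment, 5 (211) with tissue as a block and 10 (193) with Spearman's rho. With 75th percentile scaling over detected (98 of 814) or all miRNAs (73) 2 passed as well, but not miR-705 or miR-706. The 0 at 4 °C (8) became 1 under 75th percentile scaling over detected (8 of 791) or all miRNAs (14 of 786). It was also 1 with no scaling (17 of 791), quantile normalization (10 of 790) and normexp (18). Tissue as a block (15) and Spearman's rho (31) gave 1 each, and Benjamini-Hochberg adjustment gave 3 (43).

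The 7 members in liver (226) became 4 under 75th percentile scaling over detected (131) or all miRNAs (86). They became 4 with normexp (216), 4 with undetected values at the floor (261) and 14 with unadjusted p (335). With limma they became 13 (253), with limma and slide as a block 0 (0), and 14 (332) without the array of RIN 6.0. The 8 members of liver minus heart (457) became 4 under 75th percentile scaling over detected (354) or all miRNAs (378). They became 5 without scaling (400) and 5 with normexp (369). The 12 of brain minus heart (578) became 7 (544) when the 75th percentile of all miRNAs set the scale. The 7 slope differences (429) became 14 (395) without scaling and 13 (520) with the floor. The causes were not tested.

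Directions turned for members that passed under at least 1 of the 2 settings compared. With 75th percentile scaling over detected miRNAs, liver minus heart was 0.16 for miR-691. With that over all miRNAs, miR-691 was 0.063 in liver minus heart and -0.21 in brain minus liver, where miR-680 was -0.77 and miR-700-3p -0.17, and brain minus heart was -0.66 for miR-705 and -0.011 for miR-709. Without scaling, miR-702-3p was -0.35 in liver minus heart and 0.47 in brain minus liver, miR-700-3p was 1.00 in liver at low minus high RIN, and the slope differences were 0.56 for miR-691 and 0.041 for miR-700-3p.

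With quantile normalization, liver minus heart was 0.053 for miR-680, 0.49 for miR-690, 0.040 for miR-691 and 0.45 for miR-705, brain minus heart was -1.02 for miR-705 and -0.75 for miR-712-5p, and brain minus liver was -1.55 for miR-680, -0.26 for miR-700-3p, -1.47 for miR-705 and -0.48 for miR-709. With normexp, liver minus heart was 0.40 for miR-690 and 0.21 for miR-705, brain minus heart was -0.30 for miR-705, -0.066 for miR-706, -0.15 for miR-712-5p and -0.00024 for miR-714, and brain minus liver was -0.29 for miR-680, -0.51 for miR-705, -0.26 for miR-709 and -0.043 for miR-714. On RT arrays only, where liver has 1 array with a RIN over 6, assumed to vary like the other groups, and miR-691 was not detected on it, miR-691 was 1.22 in liver minus heart and -0.84 in brain minus liver.

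With undetected values at the floor, liver minus heart was 0.16 for miR-681, 0.20 for miR-691, 0.11 for miR-708-5p and 0.21 for miR-710, miR-711 and miR-712-3p. Brain minus heart was -0.13 for miR-691, -0.12 for miR-696, -0.18 for miR-703, miR-710 and miR-712-3p and -0.16 for miR-711. Brain minus liver was -0.34 for miR-691, -0.33 for miR-696, -0.39 for miR-703, miR-710 and miR-712-3p, -0.025 for miR-708-3p and -0.37 for miR-711. The correlation of miR-708-3p with storage at RT was -0.75, low minus high RIN in liver was -0.0044 for miR-696 and -0.68 for miR-708-3p, and the slope difference was -0.47 for miR-703 and -0.24 for miR-708-3p.

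Over all alternatives, 1166 of 1414 member values that passed did so again with the same sign, 218 no longer passed and 30 turned. Of 2938 values that had not passed, 194 passed without a turn of sign and 29 after one. Signals near background, on arrays where a member was not detected, limit the values of miR-691, miR-696, miR-703, miR-708-3p, miR-710, miR-711, miR-712-3p and miR-718.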
